A study of Mus musculus with 26 samples.

Results

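The arteries compared here came from mice in which a tyrosine of pannexin 1 was replaced by phenylalanine (Y308F) and from the control mice of the same line. All libraries that the labels assign to this line were used, 3 mutants and 3 controls, which are 6 of the 26 libraries of the series. The labels give the genotype Y308F+/+ for the mutants and Y308F-/- for the controls, and the tissue of both is the mesenteric arteries, the small arteries that feed the gut. All mice were male and 8 weeks old. No further allele, treatment, promoter or Cre driver is named for either group, so the labels restrict the change to no cell type. Controls are described only as littermates or wild type, and the labels do not say which applies to a given library. The other 20 libraries form 3 further comparisons, a Panx1 knockout with wild type and the point mutants Y198F and S205A with their own controls.

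Pannexin 1 forms large channels in the plasma membrane through which ATP and other small molecules leave the cell. In the wall of resistance arteries, ATP released from smooth muscle acts on purinergic receptors and takes part in the constriction that follows noradrenaline, while pannexin 1 of the endothelium has been tied to inflammatory signalling and leukocyte entry. Src family kinases can phosphorylate tyrosines of its intracellular parts, Y198 and Y308 among them, and phenylalanine lacks the hydroxyl group that takes the phosphate. The comparison asks what the loss of this tyrosine does to gene expression in the artery.

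The reference codon of the residue is shown because it is the only planned difference between the groups. Panx1 (ENSMUSG00000031934) lies on the minus strand of chromosome 9 of GRCm39, and the tyrosine codon named by Y308F, counted from the start codon, is TAT at 14918934 to 14918936, in exon 4 of 5. The reading frame has 426 codons. The 63 bases at chr9:14918904-14918966, with 10 codons on each side and the tyrosine codon in capitals, read from 5′ to 3′ along the transcript as follows.
Panx1 tyrosine codon and flanks: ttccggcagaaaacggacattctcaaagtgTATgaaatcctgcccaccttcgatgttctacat
The deposited values are counts per gene, so the mutated base itself cannot be read from them.

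Total counts were 23079721, 19624491 and 18710023 in controls 1 to 3 and 19253641, 23617902 and 19403745 in mutants 1 to 3. Libraries of one group were never duplicates of each other. In the 6 pairs within groups, the chi-square statistic divided by its degrees of freedom was 22.64 to 85.21, where sampling alone gives values near 1. The labels do not state that each library came from a separate animal, and the p-values measure only the spread between these libraries, which may be technical. The tissue label was checked first. Acta2, the actin of smooth muscle, had 7878 to 12521 CPM in the 6 libraries, and Pecam1 of endothelium had 2093 to 4364. CPM is the count scaled to the TMM-normalized size of the library, here after the filter on low counts. The male label matched in each library, with 2 to 7 counts of Xist and 1625 to 2668 of the Y-linked Ddx3y.

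The libraries differed from each other in ways that cut across genotype. The clock output gene Dbp had 3.41, 189 and 210 CPM in controls 1 to 3 and 220, 1.71 and 2.82 CPM in mutants 1 to 3. Bmal1, of the opposite arm of the clock, had 65.4, 8.20 and 4.70 CPM in the controls and 1.56, 59.1 and 67.8 CPM in the mutants. Control 1 thus shared its clock state with mutants 2 and 3, and mutant 1 shared its state with controls 2 and 3. The adipocyte hormone Adipoq had 81.0, 207 and 8.75 CPM in the controls and 102, 64.3 and 32.9 in the mutants, so the controls held both the highest and the lowest library. Control 1 had the highest summed CPM of 14 endothelial genes, 12730 against 5617 to 9642 in the other 5 libraries, and the lowest sum of 17 contractile genes, 37350 against 40190 to 58300. Mitochondrial genes took 3.79% to 6.65% of the counts in controls and 4.54% to 5.58% in mutants, and ribosomal RNA took 7.09% in control 1 and 2.99% to 3.94% in the other 5 libraries. The first principal component, with 33.6% of the variance, ran from -44.9 in control 1 to 52.9 in control 3, and the 3 mutants lay between them. In bulk tissue, fewer cells of a type and less RNA per cell cannot be told apart.

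**Figure D1:**
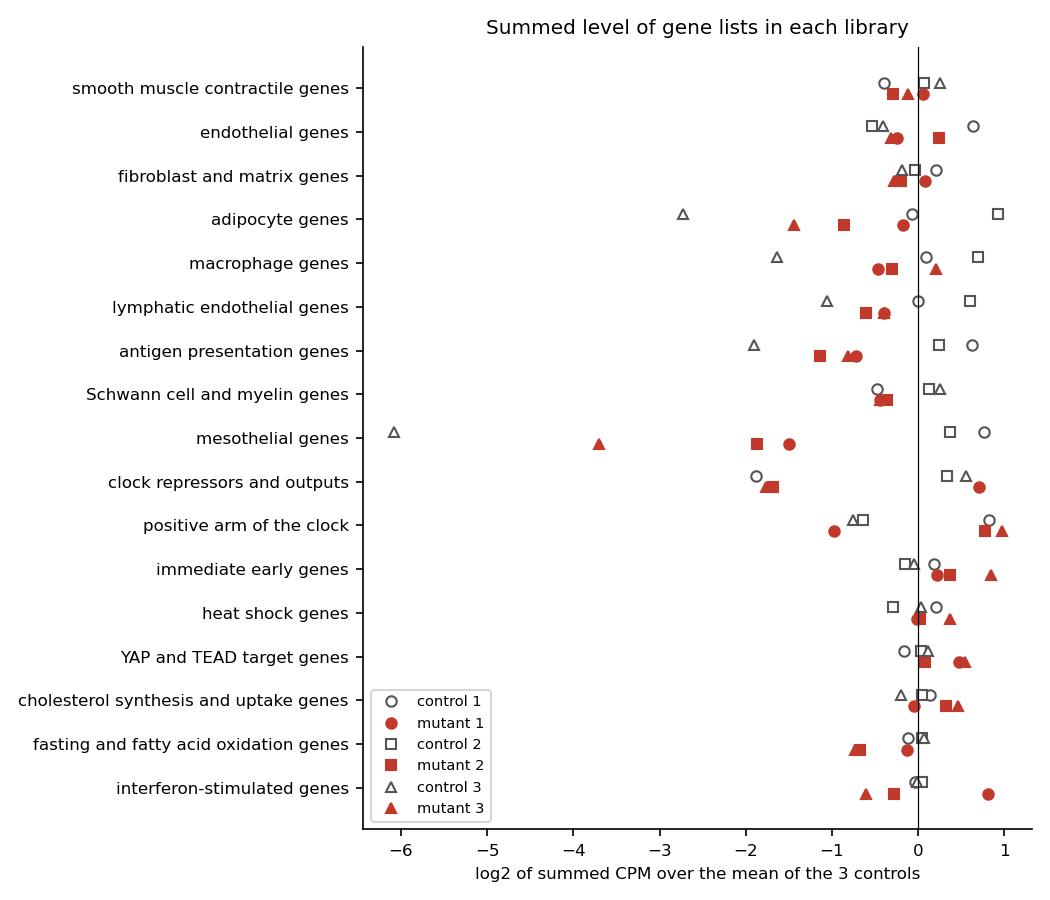
Each point is 1 library and gives the log2 of the summed CPM of a gene list over the mean of the 3 controls, with open symbols for controls, filled symbols for Y308F mutants and shapes for library numbers. The clock lists split control 1 with mutants 2 and 3 from the other 3 libraries, and control 3 lies far below the other controls in adipocyte, macrophage and mesothelial genes.

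Panx1 RNA was read first, since this gene carries the mutation. It had 95, 66 and 32 counts in controls 1 to 3, which is 4.32, 3.32 and 1.73 CPM, and 70, 79 and 55 counts in mutants 1 to 3, which is 3.64, 3.29 and 2.77 CPM. The mutants lay inside the range of the controls. The means were 3.12 ± 1.31 CPM (SD, n = 3) in controls and 3.23 ± 0.440 CPM (SD, n = 3) in mutants. The log2 fold change was 0.05 (SE 0.368, 95% interval -0.78 to 0.88). Its Benjamini-Hochberg adjusted p-value in edgeR's quasi-likelihood test was 0.991. An exact two-sided permutation test gave p = 0.9, where 3 against 3 libraries cannot go below 0.1. The interval spans changes in both directions at these counts, and the sign turned without control 3 (-0.24), without mutant 1 (-0.05) and with Dbp as a term (-0.01). Its count includes any reads of Gm68912, which overlaps Panx1 on the opposite strand, if the strand was not used in counting. On one scaling over the 26 libraries, Panx1 had 3.16 ± 1.30 CPM (SD, n = 3) in Y308F controls and 3.30 ± 0.444 CPM (SD, n = 3) in mutants, against 4.34 ± 0.807 CPM (SD, n = 3) in wild type and 0.969 ± 0.390 CPM (SD, n = 3) in the knockout. The paralog Panx2 had 1 to 3 counts in each of the 6 libraries and was not tested. Panx3 had 0 counts in each library, against a floor of 3 counts.

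Across all genes no difference passed the threshold. In edgeR's quasi-likelihood test 0 of 16037 genes (0%) had an adjusted p-value under 0.05, and the smallest adjusted p-value was 0.94. At an unadjusted p under 0.05 there were 706 genes (4.4%), of which 397 were higher in mutants (2.48% of genes tested) and 309 were lower (1.93%). That count of 706 was 1225 without control 1, 448 without control 2, 1383 without control 3 and 251 without mutant 3. The groups did not overlap in 1719 genes (10.7%), 859 with all mutants above all controls (5.36%) and 860 with all mutants below (5.36%). DESeq2 passed 0 genes, with 677 at an unadjusted p under 0.05, and limma voom with sample quality weights passed 0, with 823. In the authors' deposited table, which holds 21030 genes for this contrast, 0 had an adjusted p-value under 0.05 and 793 an unadjusted one.

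The size of change that these libraries could have missed depended on the level of the gene. The 95% interval of the log2 fold change lay within 1 log2 unit of 0, a change of less than 2-fold either way, in 11162 of 16037 genes (69.6%). The share was 1.96% for genes under a mean log2 CPM of 1, 66.7% from 1 to 4, 95.7% from 4 to 7 and 95.3% from 7 upwards. The median half-width of the interval was 0.46 over all genes, 1.30 in the lowest class and 0.32 in genes from 4 to 7.

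**Figure D2:**
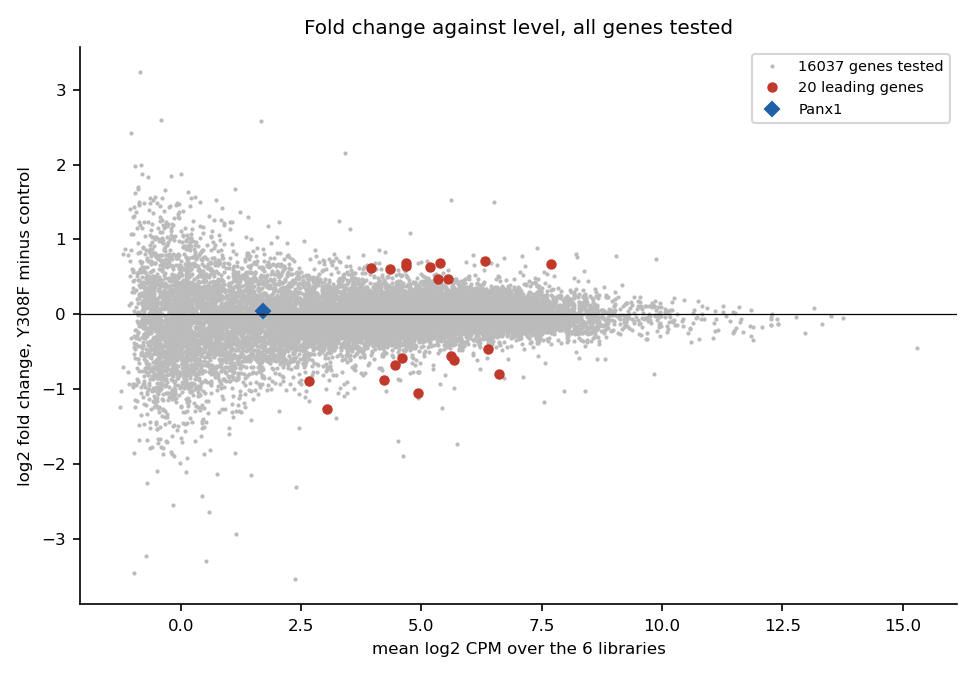
Each grey point is 1 of the 16037 genes tested, with its mean log2 CPM over the 6 libraries on the x axis and its log2 fold change (Y308F minus control) on the y axis. The 20 leading genes (red circles) lie at the edge of the cloud, and Panx1 (blue diamond) lies at 0.05, near the centre line.

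Since none passed, the 10 genes in each direction with the smallest p and non-overlapping groups are described as leading by rank only. The rule left out genes whose mean log2 CPM was under 1, and each of the 20 had an edgeR adjusted p-value of 0.94. That their groups do not overlap follows from the rule. Among the leading higher genes, Idi1, which isomerises isopentenyl diphosphate in the cholesterol pathway, had 27.8, 29.9 and 27.1 CPM in controls and 36.3, 43.0 and 52.1 CPM in mutants, a log2 fold change of 0.63 (SE 0.147). Mutant 3 was the highest library, and mutant 1 the lowest mutant. Slc38a2, a transporter of neutral amino acids, was the most abundant of the 10 by CPM, at 137, 165 and 179 CPM in controls and 224, 243 and 298 CPM in mutants (0.67, SE 0.161).

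Other leading higher genes are given one by one. Btaf1, which removes TATA-binding protein from DNA, had 27.9, 30.6 and 37.9 CPM in controls and 48.5, 47.1 and 59.6 CPM in mutants, a log2 fold change of 0.69 (SE 0.152). Tet2, a dioxygenase of methylated cytosine, had 37.2, 38.9 and 41.1 against 50.9, 52.9 and 58.4 CPM (0.47, SE 0.111). Dusp8, a phosphatase of MAP kinases, had 77.7, 50.2 and 55.0 against 93.6, 100.3 and 105.9 CPM (0.71, SE 0.169). Control 1 stood above the other controls of Dusp8 and below every mutant. Others were Rbm12b2, which encodes a protein with RNA-binding motifs, the zinc finger gene Zbtb11, Fam199x and Tsc22d2. Rbm12b2 (chromosome 4, 12089310 to 12097133, overlapping Tmem67) had 18.1 to 22.2 CPM in controls and 27.5 to 35.9 CPM in mutants (0.68, SE 0.146). Fam199x had 11.4 to 12.6 CPM in controls and 18.4 to 19.3 CPM in mutants (0.62, SE 0.137).

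The leading lower genes were led by Dynlt1b, a light chain of the dynein motor, which had 30.1, 27.7 and 28.9 CPM in controls and 19.0, 19.96 and 19.0 CPM in mutants. Its log2 fold change was -0.58 (SE 0.116), and its unadjusted p was the smallest of all genes. All 3 mutants lay close together and below the lowest control. Cripto, a co-receptor of Nodal signalling, had 8.46, 14.3 and 11.4 CPM in controls and 5.88, 5.04 and 3.32 CPM in mutants (-1.26, SE 0.283). Tmem86a, an enzyme that breaks down lysoplasmalogen lipids, had 24.0, 22.7 and 25.0 CPM in controls and 16.6, 12.9 and 9.77 CPM in mutants (-0.87, SE 0.192). Mutant 3 was the lowest library for both of these. Adamts14, a procollagen-processing protease, had 7.24 to 9.19 CPM in controls and 3.93 to 4.96 in mutants. Clec2d, a C-type lectin, had 140, 145 and 84.8 CPM in controls and 80.3, 72.7 and 60.1 in mutants, so control 3 stood just above mutant 1. Others were the arrestin domain gene Arrdc3 (-0.61), the ADP-ribosyltransferase family gene Art3 (-0.55), the chromatin protein gene Hmgb2 (-0.67) and the transcription factor gene Atoh8 (-0.46).

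The level of Btaf1 in the other lines, on one scaling over the 26 libraries, shows where the Y308F groups stand. Its mean was 32.6 ± 5.51 CPM (SD, n = 3) in Y308F controls and 52.8 ± 7.10 CPM (SD, n = 3) in mutants, while the means of the other 6 groups were 39.6 to 44.8 CPM. The Y308F controls had the lowest and the mutants the highest mean of all 8 groups.

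**Figure D3:**
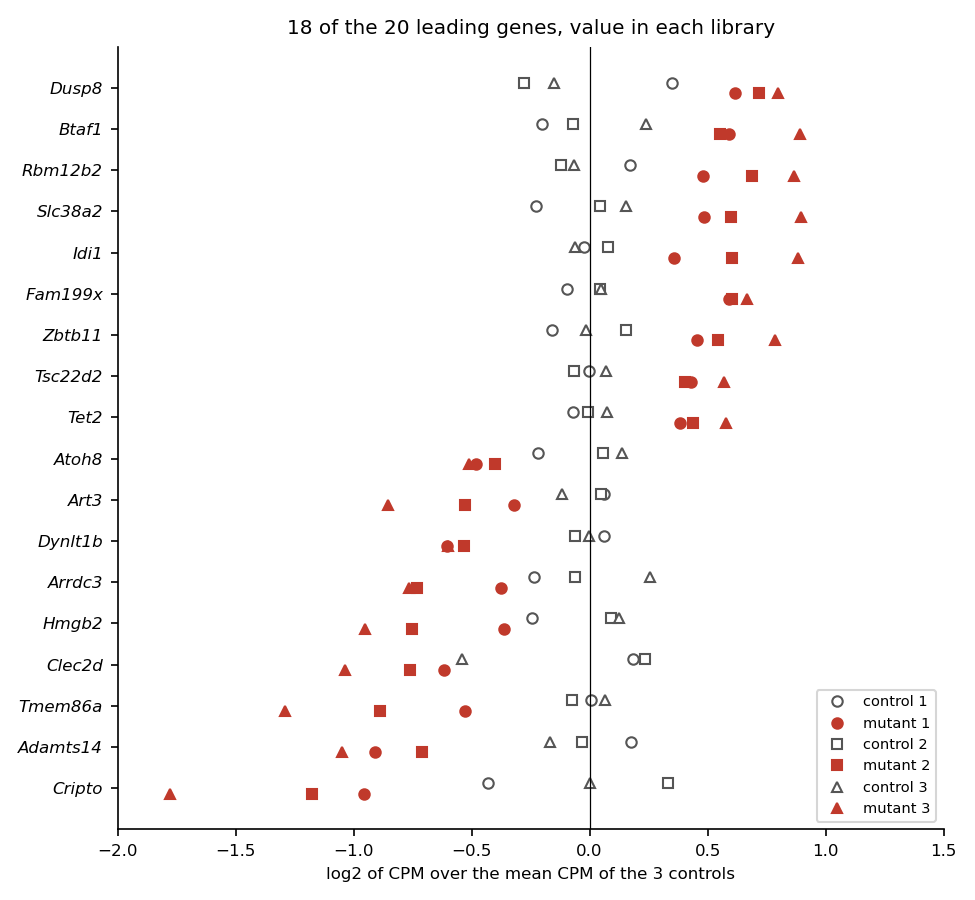
Points give each library of 18 of the 20 leading genes as the log2 of its CPM over the mean CPM of the 3 controls (open symbols, controls; filled symbols, Y308F mutants; shapes, library numbers). Groups do not overlap for any of these genes because the rule required it, and mutant 3 is the farthest mutant from the controls in most of them.

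Fold change moved with the GC content and length of the transcript, over 13056 genes with a mean log2 CPM of at least 1. The genes were divided into 4 equal bins by GC content and by length. The median log2 fold change was 0.09 in the bin with the lowest GC content and -0.12 in the bin with the highest, and 67.5% and 25.4% of genes lay above 0. It was -0.12 in the bin of shortest transcripts and 0.09 in that of the longest. Single libraries differed in this trend. The correlation with GC content was 0.25, 0.15 and -0.08 in controls 1 to 3 and -0.10, 0.01 and -0.29 in mutants 1 to 3. Control 3 thus lay between mutants 1 and 2. The correlation with log2 length was -0.03, -0.23 and -0.03 in controls and 0.03, 0.04 and 0.28 in mutants. Those groups did not overlap, with control 2 and mutant 3 farthest from 0. The 10 leading higher genes had a median GC content of 44% and a median length of 5346 bases, the 10 leading lower genes had 48.4% and 2205 bases, and all these genes had 50.1% and 3383 bases. After removal of the trend from each library 0 genes passed in edgeR, and an unadjusted p under 0.05 was seen for 448 genes, against 706 before. The part of this trend in the named genes beyond that fit was not tested.

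Calls appeared under 2 of the alternatives tried. Without a filter on low counts 7 of 29468 genes passed in edgeR, 3 higher and 4 lower. The higher genes were Btaf1, Dusp8 and Ccn2, and the lower genes included Cripto, Tmem86a and Clec2d. These named genes had edgeR Benjamini-Hochberg adjusted p-values from 0.0275 to 0.0297. Their fold changes under that setting differed little from those above, for example -1.25 for Cripto and 0.73 for Dusp8, while their standard errors were equal or smaller. The median total degrees of freedom of the test was 253 without the filter and 9 with it, so that equal ratios of difference to error gave smaller p-values. Without control 3, 1 gene passed, Tmem45b, with 119 and 144 counts in controls 1 and 2, 4 counts in control 3 and 2, 0 and 1 counts in mutants 1 to 3. Its fitted log2 fold change without control 3 was -6.87 (edgeR adjusted p-value 0.0405), so the call rests on 2 control libraries. In the authors' deposited table Tmem45b had a log2 fold change of -6.43 and an adjusted p-value of 0.236, the smallest there, which Slc38a2 and Btaf1 shared.

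Dynlt1b belongs to a set of near-identical copies on chromosome 17, and its neighbours were examined after its values were seen. Of 10 genes of the cluster 9 were tested, all 9 had a log2 fold change below 0, and 5 had an unadjusted p under 0.05 with all mutants below all controls. Over all genes 1.93% were lower at that p and 5.36% were lower without overlap. Dynlt1b, which prompted the list, is in each count of the cluster, and its copies can share reads. The members are therefore not independent of each other. Besides Dynlt1b (17, 6697471 to 6703695) the 5 were its copies Dynlt1a (6356613 to 6367792), Dynlt1c (6869051 to 6879446) and Dynlt1f (6914001 to 6923299) and the long RNA Gm64463 (6705923 to 6757893). Dynlt1a had 11.1, 10.5 and 10.3 CPM in controls and 6.45, 7.63 and 5.34 CPM in mutants (-0.71, SE 0.201). Dynlt1c had 31.6, 33.3 and 28.0 against 21.8, 23.3 and 25.7 CPM, and Dynlt1f had 22.5, 24.3 and 19.7 against 16.2, 17.2 and 17.5 CPM, each a log2 fold change of -0.39. Gm64463 had 15.1, 19.4 and 15.1 against 8.54, 13.5 and 11.3 CPM (-0.57, SE 0.205). Tmem181a, which overlaps the end of Dynlt1a, had 37.4, 34.0 and 34.6 against 33.3, 31.6 and 34.6 CPM, and its groups overlapped. Reads of the copies can be assigned to one another, so values of single copies are uncertain.

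The other groups were used to place these levels, on one scaling over the 26 libraries. The 3 Y308F mutants had the lowest Dynlt1b of all 26 libraries, at most 20.4 CPM against at least 21.7 CPM in the other 23 libraries. The same held for Dynlt1f, at most 17.9 against at least 18.2 CPM. For Dynlt1a, Dynlt1c and Gm64463, 3, 1 and 2 of the other 23 libraries lay below the highest Y308F mutant. Group means of Dynlt1b ran from 25.0 ± 2.79 CPM (SD, n = 4) in S205A controls to 41.4 ± 5.73 CPM (SD, n = 3) in the Panx1 knockout. Y308F controls had 29.2 ± 1.19 (SD, n = 3) and Y308F mutants 19.8 ± 0.557 CPM (SD, n = 3). Against their own controls, the log2 fold change of Dynlt1b was 0.14 (SE 0.128) in the knockout, 0.31 (SE 0.151) in S205A and 0.37 (SE 0.143) in Y198F, where it was -0.58 in Y308F. The difference between the Y308F effect and that of the other line was -0.70 for the knockout and -0.86 for S205A (edgeR adjusted p-value 1 for each). It was -0.94 for Y198F (edgeR adjusted p-value 0.0106), a line whose mutation cannot be told apart from its library series. In the fit of all 8 groups 0 genes differed from Y198F, so Dynlt1b was not called there.

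**Figure D4:**
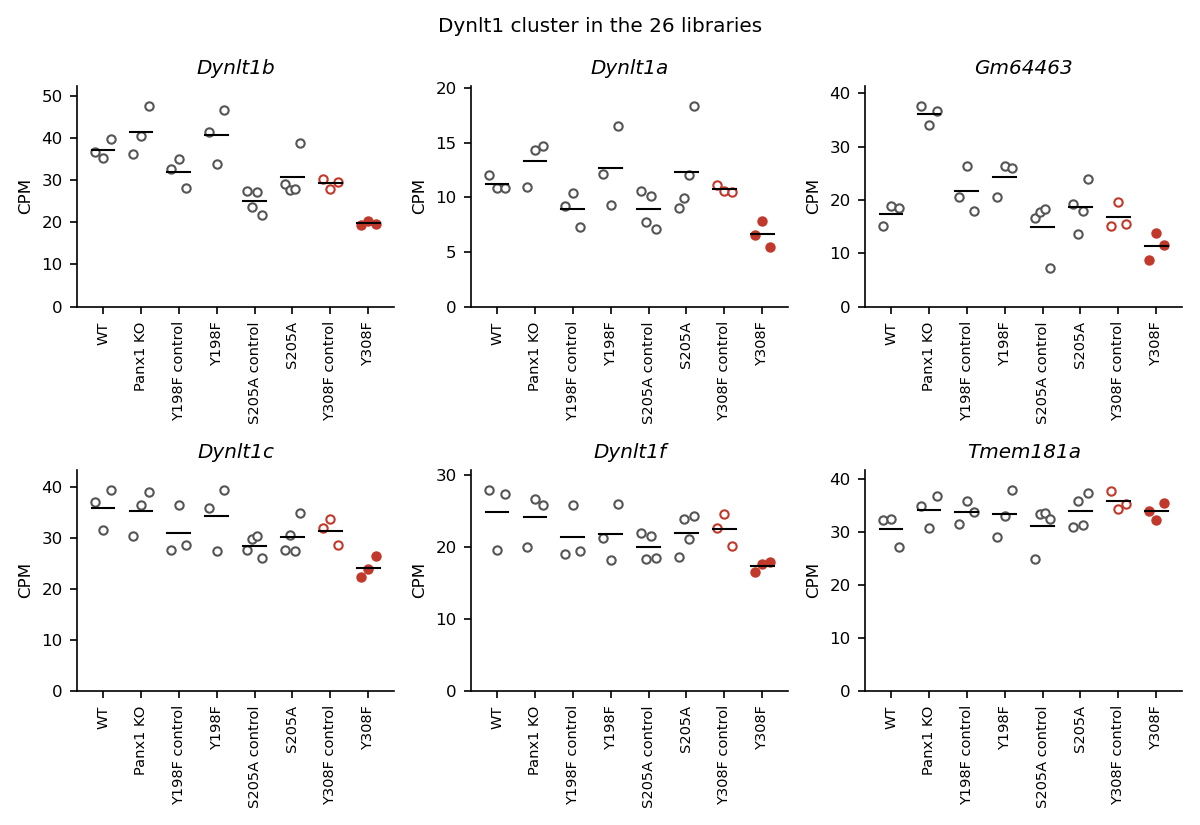
CPM of 6 genes of the Dynlt1 cluster in the 26 libraries by group, with a line at each group mean, Y308F controls as open red circles and Y308F mutants as filled red circles. The Y308F mutants hold the 3 lowest values of Dynlt1b and Dynlt1f, while the values of Tmem181a overlap among the 8 groups.

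The pathway around the channel was read next, by role. In each of the lists that follow 0 genes passed in edgeR, and every adjusted p-value was at least 0.94, the smallest over all genes. Counts at an unadjusted p under 0.05 are given with most lists. They were 0 for the pannexins and connexins, the enzymes acting on pannexin 1, the interferon-stimulated genes and the fibroblast and matrix genes. Among the connexins, which form gap junctions between the cells of the wall, Gja4 had 280, 255 and 323 CPM in controls and 278, 222 and 211 in mutants, and Gjc1 had 77.0, 79.7 and 108 against 97.8, 94.0 and 92.3 CPM. Both overlapped. The 5 tested members of the pannexin and connexin list had log2 fold changes from -0.27 to 0.12, 3 of them above 0 (46% of all genes tested lay above 0). The enzymes known to modify or cleave pannexin 1, with its partner caveolin, were measured closely. All 12 had an interval within 1 log2 unit of 0, with 7 above 0, 5 below and a median of 0.01 against -0.03 over all genes. Src, a kinase of the channel's tyrosines, had 23.7, 21.7 and 26.2 CPM in controls and 24.7, 17.3 and 19.3 in mutants (-0.22, SE 0.162). Its relatives Yes1 and Lyn had log2 fold changes of 0.28 (SE 0.140) and -0.35 (SE 0.251).

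Receptors for the released nucleotides gave 2 of 11 tested members with an unadjusted p under 0.05, both higher (2.48% of all genes were). P2rx1, the ATP-gated cation channel of arterial muscle, was abundant and overlapped between groups, with 554, 808 and 959 CPM in controls and 838, 613 and 688 CPM in mutants. P2ry1, an ADP receptor, had 11.7, 8.35 and 9.62 CPM in controls and 13.2, 13.8 and 16.7 CPM in mutants, without overlap (0.56, SE 0.189). P2ry14, a receptor for UDP-sugars, was low, with 1.18, 0.75 and 1.51 CPM in controls and 3.28, 1.12 and 3.78 in mutants. Mutant 2 lay inside the control range of P2ry14. The other 9 members lay below 0, and the list's median was -0.12, with values from -0.24 without mutant 1 to -0.06 without control 2. Among enzymes that remove extracellular ATP and adenosine, 4 of 9 tested members lay above 0 and 5 below, and none had an unadjusted p under 0.05. Entpd1, which hydrolyses ATP and ADP, had 355, 367 and 404 CPM in controls and 453, 370 and 405 in mutants (0.12, SE 0.144).

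Of the 9 adrenergic receptors, whose agonist noradrenaline is linked to this channel in arterial muscle, 3 lay above 0 and 6 below. Only Adra1d had an unadjusted p under 0.05 (1.93% of all genes did so on the lower side). Adra1d, the alpha-1D receptor, had 23.8, 26.6 and 36.2 CPM in controls and 20.7, 24.4 and 20.1 CPM in mutants (-0.41, SE 0.175), and mutant 2 lay above control 1. The alpha-1A receptor gene Adra1a had 39.6, 39.3 and 43.2 CPM in controls and 34.9, 44.9 and 58.6 in mutants, with mutants on both sides of the controls. Adra2a, the alpha-2A receptor, had 11.01, 9.25 and 6.27 against 4.79, 8.00 and 2.77 CPM (-0.77, SE 0.385). The median of the list was -0.35, and it was 0.16 without control 1, where Adra2c is highest at 60.2 CPM.

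The contractile apparatus of smooth muscle was read in its abundant structural genes and their regulators. All 17 genes were tested, all 17 intervals lay within 1 log2 unit of 0, 6 genes lay above 0 and 11 below, and none had an unadjusted p under 0.05. Acta2 had 7878, 11665 and 12521 CPM in controls and 11143, 8288 and 9852 CPM in mutants, a log2 fold change of -0.13 (95% interval -0.69 to 0.43). Myh11, the smooth muscle myosin heavy chain, had -0.02 (SE 0.237). The largest differences were Myl9, a myosin light chain, at -0.34 (SE 0.221) and the intermediate filament gene Des at -0.33 (SE 0.199). Control 1 and mutants 2 and 3 had the 3 lowest sums of this list, the same libraries that shared a clock state, and the part of that split in the list was not tested. The median was -0.12, and it was 0.07 with Dbp as a term and from -0.31 without control 1 to 0.03 without mutant 2.

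Channels that set the muscle's membrane potential and calcium gave 0 genes with an unadjusted p under 0.05 among 13 potassium channel genes and 15 calcium channel genes. Medians were 0.01 and -0.04. Kcnma1, the pore of the large-conductance potassium channel, had 51.8, 71.0 and 81.4 CPM in controls and 82.6, 69.7 and 103 CPM in mutants (0.32, SE 0.197). Itpr1, a calcium release channel of internal stores, was the 1 gene of both lists whose groups did not overlap (5.36% of all genes were higher without overlap), with 370, 300.3 and 389 CPM in controls and 422, 390 and 495 CPM in mutants (0.30, SE 0.163), and the gap between control 3 and mutant 2 was under 1 CPM. Ryr2, the other release channel, had 84.7, 109 and 143 against 144, 114 and 177 CPM (0.37, SE 0.223). The L-type channel gene Cacna1c had 0.26 (SE 0.250).

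**Figure D5:**
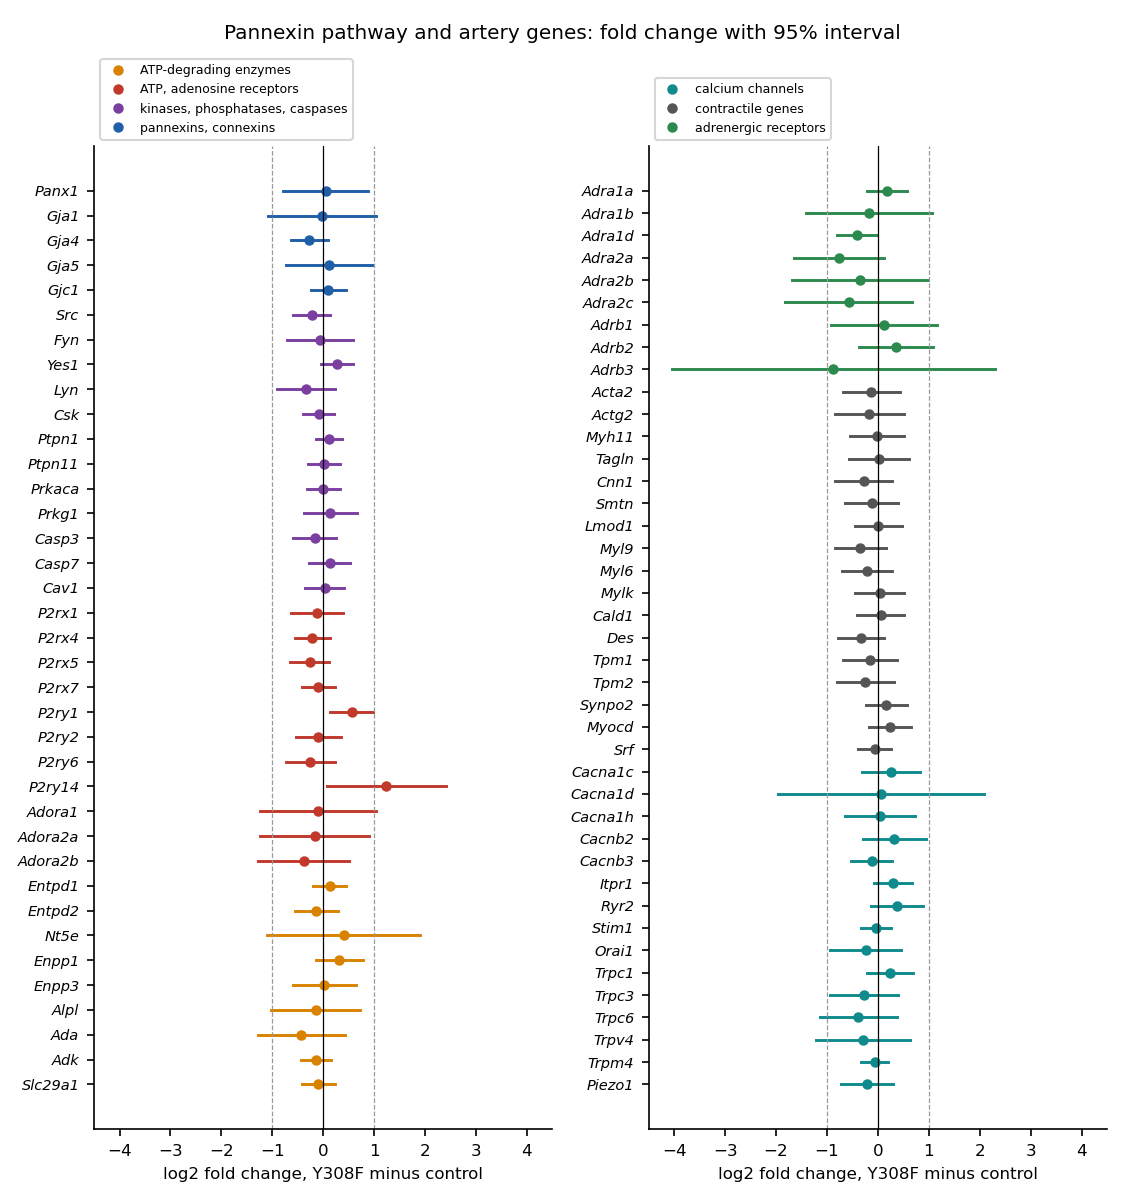
Points give the log2 fold change (Y308F minus control) and bars its 95% interval for the tested members of 7 lists, with dashed lines at 1 log2 unit on each side of 0. All bars of the contractile genes and of the kinases, phosphatases and caspases stay between the dashed lines, and P2ry1, P2ry14 and Adra1d are the genes whose bars leave out 0.

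The summed level of endothelial genes was highest in control 1, and each gene overlapped between genotypes. Of 14 tested genes 3 lay above 0 and 11 below, with 0 at an unadjusted p under 0.05 and a median of -0.18. Pecam1, the junction protein of these cells, had 4364, 2093 and 2504 CPM in controls and 2660, 4153 and 2768 CPM in mutants. Nos3, the endothelial nitric oxide synthase, had 705, 278 and 249 against 222, 468 and 274 CPM (-0.35, SE 0.466). Without control 1 the log2 fold change of Nos3 was 0.29 and the list's median was 0.26. Of the 17 adhesion molecules and cytokines that mark inflamed vessels, 13 were tested, 3 lay above 0, 10 below and 0 had an unadjusted p under 0.05. The median was -0.12, and 0.20 without control 1. Icam1, which binds leukocyte integrins, had 109, 50.6 and 54.0 CPM in controls and 54.9, 80.5 and 61.9 in mutants, and Vcam1 had 612, 506 and 568 against 661, 572 and 443 CPM. Tnf, Il1b, Il6 and Nlrp3 had 0 to 11 counts per library and were not tested.

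Immediate early genes, which respond within minutes to stimuli such as stretch, handling or growth factors, were mostly higher in mutants. Of 15 tested genes 14 lay above 0, with a median of 0.48 against -0.03 over all genes, 4 had an unadjusted p under 0.05, all higher (2.48% of all genes), and 5 did not overlap between groups (859 of 16037 genes, 5.36%, were non-overlapping and higher). Jun, a subunit of AP-1, had 173, 151 and 157 CPM in controls and 207, 225 and 265 CPM in mutants (0.53, SE 0.141). Fosb, of the same complex, had 5.32, 2.31 and 3.94 against 8.48, 7.54 and 35.8 CPM (2.15, SE 0.694), so mutant 3 carried most of its mean. Fos showed the same library, with 19.6, 40.8 and 82.8 CPM in controls and 80.1, 62.9 and 263 CPM in mutants, and its groups overlapped. Dusp1 had 136, 146 and 170 against 173, 193 and 300 CPM (0.56, SE 0.212). Over the alternatives tried the list's median ran from 0.30, without mutant 3, to 0.59, without mutant 1.

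Heat shock genes and targets of YAP and TEAD, transcription regulators that respond to cell stretch and shape, were also mostly higher. Of 8 heat shock genes 7 lay above 0 (46% of all genes) and 3 had an unadjusted p under 0.05, all higher (2.48%). Hspa1b, an inducible HSP70 gene, had 60.8, 37.6 and 49.2 CPM in controls and 73.3, 61.4 and 122 CPM in mutants (0.80, SE 0.283). Its near-identical copy Hspa1a had 52.6, 38.2 and 48.5 against 65.0, 53.9 and 108 CPM (0.70, SE 0.261), and the counts of this pair are uncertain. Mutant 3 was again highest, and the list's median of 0.25 was 0.10 without it and 0.41 without control 1. The YAP and TEAD list was added after values were seen. All 10 of its genes lay above 0 (46% of all genes) and 4 had an unadjusted p under 0.05 (2.48% on the higher side). The median was 0.17, and it was 0.11 without control 1 and 0.33 without mutant 2. Ccn2, a matricellular growth factor, had 326, 434 and 400.1 CPM in controls and 756, 506 and 723 CPM in mutants (0.78, SE 0.197), and Ccn1 had 129, 298 and 246 against 376, 289 and 473 CPM (0.76, SE 0.315). Mutant 2 was the lowest mutant for both and lay below control 2 for Ccn1. The dissection time and handling of the libraries are not given in the labels, and their part in these lists was not tested.

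Genes of lipid metabolism split among the mutants. The cholesterol synthesis and uptake list and the fasting and fatty acid oxidation list were both added after values were seen, and each holds leading genes that prompted it. Of 22 cholesterol genes 19 lay above 0, with a median of 0.23, and 2 had an unadjusted p under 0.05, both higher (2.48% of all genes), Idi1 among them. Cyp51, a later enzyme of the pathway, had 22.3, 17.5 and 14.5 CPM in controls and 16.3, 30.3 and 35.1 CPM in mutants, and Insig1, a sensor of sterols, had 50.3, 51.8 and 37.9 against 38.8, 76.3 and 69.7 CPM. For both of these mutants 2 and 3 lay above all controls and mutant 1 did not. The median was 0.11 without mutant 3, 0.35 without mutant 1 and 0.10 with Dbp as a term.

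Of 22 fasting and fatty acid oxidation genes 20 lay below 0, with a median of -0.30, and 5 had an unadjusted p under 0.05, all lower (1.93% of all genes). They included Txnip, Arrdc4, Pdk4 and Ech1. Txnip, an inhibitor of thioredoxin and of glucose uptake, had 1012, 1110 and 1341 CPM in controls and 908, 526 and 561 CPM in mutants, without overlap (-0.80, SE 0.236). Pdk4, which switches off pyruvate dehydrogenase, had 55.7, 44.6 and 69.8 against 44.9, 28.3 and 24.1 CPM (-0.81, SE 0.256), and mutant 1 lay just above control 2. Angptl4, a secreted inhibitor of lipoprotein lipase, had 46.9, 37.2 and 20.6 against 22.7, 5.67 and 4.18 CPM (-1.69, SE 0.727). In each of these 3 genes mutants 2 and 3 were the lowest libraries and mutant 1 was the highest mutant. The list's median was -0.64 without mutant 1 and -0.17 with Dbp as a term. Mutant 1 differs from the other mutants in clock state, and the part of the clock in this split was not tested beyond that fit.

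Clock genes themselves overlapped widely between groups. Of 13 repressors and outputs 5 lay above 0 and 8 below, all 5 tested genes of the positive arm lay above 0, and 0 of either had an unadjusted p under 0.05. Interferon-stimulated genes were highest in mutant 1, with a summed CPM of 569 against 318 to 336 in controls and 214 to 269 in the other mutants. Of 13 tested 10 lay above 0, and the median was 0.09 with all libraries and -0.49 without mutant 1.

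Markers of cells outside the vessel wall, or few in it, were mostly lower in the mutants without passing the test. Schwann cells, which ensheath the nerves running along these arteries, gave the most. Of 12 genes 11 lay below 0, 5 had an unadjusted p under 0.05, all lower (1.93% of all genes), and the median was -0.42. It was -0.68 without control 1 and -0.28 with Dbp as a term. Mbp, a myelin protein gene, had 27.8, 50.3 and 62.8 against 27.7, 32.6 and 24.6 CPM, so mutant 2 lay above control 1. Ngfr, the low-affinity neurotrophin receptor, had 5.59, 8.20 and 10.3 CPM in controls and 3.69, 4.88 and 2.62 CPM in mutants, without overlap (-1.10, SE 0.317). The list summed to 272, 415 and 453 CPM in controls and 280, 295 and 279 CPM in mutants, and control 1 lay below each mutant. Uchl1, a neuronal ubiquitin hydrolase, had 59.4, 54.0 and 51.8 against 44.1, 43.0 and 37.4 CPM, without overlap (-0.41, SE 0.118). The neuronal markers Th and Chat had 0 to 1 counts per library.

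Mesothelial genes, which mark the lining of the peritoneum, had a median of -2.08 over 6 tested genes, all below 0 and 1 (Krt19) with an unadjusted p under 0.05 (1.93% of all genes on the lower side). The median was -1.39 without control 1, -2.87 without control 3, -1.21 with voom and -1.30 with the adipocyte score as a term. Their sum was 31.1, 23.6 and 0.27 CPM in controls and 6.51, 5.001 and 1.41 CPM in mutants, so control 3 was below every mutant. Upk3b had 295, 243 and 0 counts in controls and 55, 48 and 7 in mutants. The 12 adipocyte genes summed to 1913, 3818 and 303 CPM in controls and 1786, 1112 and 740 CPM in mutants, and 10 lay below 0 with 0 at an unadjusted p under 0.05. Of 12 macrophage genes 11 lay below 0, and of 7 antigen presentation genes, a list added after values were seen, all 7 did, again with 0 at an unadjusted p under 0.05. Cd74, the invariant chain of class II molecules, had 46.4, 34.6 and 7.13 CPM in controls and 16.7, 13.8 and 18.0 CPM in mutants. Fibroblast and matrix genes had a median of -0.02 over 16 genes. The adipocyte median was -0.59, with 0.28 without control 2 and -1.10 without control 3. The macrophage median was -0.31, with 0.26 without control 2 and -0.77 without control 3.

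The Y308F effect was compared with that of the other lines by testing the difference itself, with separate controls in each line. Against the knockout, which removes the channel, 2 of 17278 genes (0.0116%) differed in edgeR, and 535 (3.1%) had an unadjusted p under 0.05. Plac9, a gene for a small secreted protein, had a log2 fold change of -0.23 (SE 0.139) in Y308F and -1.96 (SE 0.112) in the knockout, a difference of 1.75 (SE 0.171, edgeR adjusted p-value 0.00181). In the fit of all 8 groups its difference was 1.74 (edgeR adjusted p-value 0.329), and the 2 genes called there were Gm15446 and Tmem254. Gm15446 had -0.13 (SE 0.189) and -3.63 (SE 0.392), a difference of 3.52 (SE 0.426, edgeR adjusted p-value 0.0108). In Y308F both genes overlapped between mutants and controls, so the difference comes from their values in the knockout line. Gm64463 of the Dynlt1 cluster differed too in DESeq2 (-1.60, DESeq2 adjusted p-value 3.24e-05) and in edgeR without Y308F control 1 or mutant 2, but not in the edgeR test of all 12 libraries. Its mean over the 26-library scaling was 17.5 ± 2.10 CPM (SD, n = 3) in wild type and 36.2 ± 1.82 CPM (SD, n = 3) in the knockout.

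The 20 leading genes of Y308F were read in the other lines as a description. In the knockout 16 of 20 had the same sign as in Y308F, where 63.1% of 15617 genes tested in both did, and 5 of the 20 had an unadjusted edgeR p under 0.05 there, all with the same sign (11.2% of 16193 genes in the knockout comparison had such a p). Those were Cripto (-1.51, SE 0.325), Atoh8 (-0.54), Clec2d (-0.58), Tet2 (0.39) and Slc38a2 (0.34), with edgeR adjusted p-values from 0.281 to 0.436 in the knockout comparison. In S205A 7 of 20 had the same sign, against 49.4% of all genes, and 1 had an unadjusted p under 0.05 (2.87% of all genes), with the opposite sign. In Y198F 8 of 20 had the same sign, against 41%, and 9 had an unadjusted p under 0.05 (29.1% of all genes), 3 of them with the same sign.

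Against S205A 0 of 17602 genes (0%) differed in edgeR, and 615 (3.49%) had an unadjusted p under 0.05. The leading gene was Ngfr, with -1.10 (SE 0.317) in Y308F and 1.82 (SE 0.317) in S205A, a difference of -2.90 (edgeR adjusted p-value 0.205). DESeq2 passed 13 genes here, all with a lower effect in Y308F. They include the Schwann cell genes Ngfr and Sox10, together with Epb41l3, Gpr37l1 and Txnip. The S205A line mixes series of library numbers within both of its groups. With library series as a term in edgeR, 0 genes differed from S205A and 912 had an unadjusted p under 0.05. Against Y198F 979 of 17190 genes (5.7%) differed, but the Y198F mutants and their labelled controls come from different series of library numbers, so series and mutation cannot be told apart there. When the 8 groups shared one edgeR fit, 0 genes differed from Y198F and 3301 of 18715 passed an unadjusted p under 0.05.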

How the data were processed

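Per the labels' protocols, polyadenylated RNA gave paired reads of 150 bases, which were mapped to GRCm39 with STAR 2.7.9a and counted per gene with featureCounts of Rsubread 2.20.0. The annotation release and strand setting are not given in the sources used here, so values of overlapping genes and near-identical copies are uncertain. The authors deposited raw counts for 57010 genes, which were used for each test. They also deposited a normalized signal table, whose filter served as an alternative, and a DESeq2 1.46.0 comparison with log2 fold changes, p-values, base means in normalized signal and a test score, per the labels' protocols. Of the gene identifiers, 56310 matched GENCODE vM39, the source of coordinates and sequence.

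Differences were tested with edgeR 4.0.16 (R 4.3.3) by the quasi-likelihood method, with TMM normalization, filterByExpr, robust dispersion, the 6 libraries only and Benjamini-Hochberg adjustment over all genes at 0.05. Standard errors and 95% intervals come from the fold change and its F statistic. Alternatives were DESeq2 1.42.0, limma 3.58.1 (voom), other scalings and filters, a joint fit of the 8 groups, a replicate block and the removal of single libraries. Terms for Dbp and an adipocyte score, a fit of 17 libraries and removal of the GC and length trend were added after seeing the data. The procedures were checked on simulated data, with changes larger than most of those reported here and only in genes above a set level. Detection of smaller changes was not checked.

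The samples, lists and rules were chosen with earlier results of these data known, and 6 of the 36 lists were added after values were seen. Named genes are Panx1 to Panx3, the 10 genes per direction with the smallest p, no overlap and a mean log2 CPM not under 1, the first member of each list and the 2 others with the smallest p, genes passing in an alternative and the 2 leading genes of each interaction. Other genes were named after their values were seen. Some genes that meet the rule are not reported here. No list was tested as a set. Intervals cover counting error and the spread between these libraries only.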

Additional observations from a re-analysis of the deposited data

Results flagged for a closer look

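The effect of Y308F differed from that of the knockout in 2 genes by edgeR's test of the difference. Plac9 differed by 1.75 and Gm15446 by 3.52 on the log2 scale, Y308F minus knockout, and in each the knockout value was far below 0 while the Y308F value was near 0. In the fit of all 8 groups Gm15446 was still called and Plac9 was not (1.74, edgeR adjusted p-value 0.329). Plac9 overlaps Anxa11, and without a stated strand setting its reads cannot be told apart from those of that gene.

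The effect of Y308F differed from that of Y198F in 979 genes by the same test. The leading genes were Gm13340, with a difference of -3.46 and log2 fold changes of 0.08 in Y308F and 3.54 in Y198F, and Gm13341, with a difference of -3.64 and log2 fold changes of -0.50 in Y308F and 3.15 in Y198F. In the fit of all 8 groups neither was called (edgeR adjusted p-values 0.107 and 0.105). Library series and mutation cannot be told apart in the Y198F comparison.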

How the results depend on the processing

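The number of genes called in Y308F against its controls was 0 in the test as reported, 7 without the filter on low counts and 0 to 1 with single libraries left out, the 1 being Tmem45b without control 3. The number that differed from the knockout was 6 in DESeq2 and 2 to 5 with single libraries left out, while the fit of all 8 groups also gave 2 but without Plac9. The number that differed from S205A was 13 in DESeq2, and that from Y198F was 1559 in DESeq2, 0 in the fit of all 8 groups, 267 with the replicate block and 320 to 1227 with single libraries left out. Library numbers did not pair the Y308F samples (correlations of same-numbered libraries -0.17, -0.08 and 0.07), and the replicate block called 0 genes in Y308F.

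Over 84 genes besides Panx1 and 1428 values under the alternatives, 1372 kept the direction and stayed short of the threshold, 7 passed it and 49 changed direction, in 15 genes, and Panx1 changed direction in 3 further values. Changed directions by setting, as log2 fold changes, were as follows, and their cause was not tested. With Dbp as a term they were -0.00744 for Panx1, -0.0188 for Gja5, 0.0942 for P2rx1, 0.0582 for Acta2, 0.127 for Myh11, -0.0895 for Pecam1, 0.0193 for Vcam1 and -0.967 for Bmal1. With voom they were 0.151 for Gja1, -0.0279 for Kcnmb1, 0.0894 for Icam1 and 0.0755 for Adipoq. With the replicate block they were 0.155 for Gja1, 0.00227 for Myh11 and 0.161 for Adipoq, and with the adipocyte score 0.262 for Gja1 and 0.273 for Adipoq. The filter of the deposited normalized table gave 0.00606 for Myh11 and 0.0119 for Vcam1, and the fit of 17 libraries gave 0.00493 and 0.0108. Vcam1 had 0.00319 in DESeq2 and 0.00555 without a filter, and Kcnmb1 had -0.00803 in the fit of all 8 groups and -0.0478 with the GC and length trend removed.

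With single libraries left out, ranges that crossed 0 were -0.236 to 0.356 for Panx1, -0.404 to 0.441 for Gja1, -0.109 to 0.674 for Gja5, -0.309 to 0.0706 for P2rx1, -0.0162 to 0.342 for Adra1a, -0.308 to 0.00338 for Acta2, -0.168 to 0.158 for Myh11, -0.174 to 0.208 for Kcnmb1, -0.121 to 0.476 for Pecam1, -0.711 to 0.288 for Nos3, -0.652 to 0.229 for Eng, -0.79 to 0.206 for Emcn, -0.31 to 0.333 for Icam1, -0.151 to 0.144 for Vcam1 and -1.11 to 0.563 for Adipoq. A further 32 genes kept their sign and moved by more than 1.5 times, among them Cacna1c (0.0312 to 0.492), Kcnma1 (0.16 to 0.475), Ryr2 (0.202 to 0.585), Adra2a (-1.21 to -0.456), Src (-0.386 to -0.0984), Fos (0.6 to 2.17) and Fosb (1.06 to 2.54). Adra1d (-0.529 to -0.209), Angptl4 (-2.82 to -1.3), Lyn (-0.576 to -0.153) and Dusp1 (0.293 to 0.708) also belong to these 32. So do Hspa1a (0.366 to 0.919) and Hspa1b (0.462 to 1.01). The share of genes with an interval within 1 log2 unit was 60.8% to 65.8% in these fits. For most genes under a mean log2 CPM of 1, the interval at this depth reached past a 2-fold change.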

Other observations

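A few gene groups outside the comparisons above followed single libraries. Cell proliferation genes summed to 37.5, 19.2 and 29.2 CPM in controls and 57.8, 22.8 and 22.3 CPM in mutants, so mutant 1 was highest. Of 10 tested, 8 lay above 0, 0 had an unadjusted edgeR p under 0.05, and the median of 0.34 became -0.42 without mutant 1. Lymphocyte and plasma cell genes summed to 28.2, 16.9 and 2.701 CPM in controls and 6.51, 9.63 and 10.2 CPM in mutants, and 7 of 7 tested genes lay below 0, with a median of -0.74 that was -0.20 without control 1. Lymphatic endothelial genes had a median of -0.39 over 6 genes and 0.14 without control 2. Erythroid genes, which mark blood in the vessel, summed to 514, 225 and 19.4 CPM in controls and 170, 484 and 22.2 CPM in mutants, with control 3 and mutant 3 lowest.

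Tnnt3, a troponin of fast skeletal muscle, had 27, 19 and 11 counts in controls and 1, 3 and 2 in mutants. Its values did not overlap, and it had the log2 fold change farthest from 0 (-3.22) among the 5 skeletal muscle genes tested, of which 4 lay below 0 and 1 above. It was not among the leading genes because its level was under the limit of that rule. Glucocorticoid and metallothionein genes lay above 0 in 4 and below in 4 of the 8 tested. Brown and beige fat genes lay above 0 in 2 and below in 3 of the 5 tested. Intestinal epithelial genes had 3 of 8 and pancreatic acinar genes 1 of 8 members above the filter on low counts, and Apoa4, Sis, Cpa1 and Prss2 had 0 counts in the 6 libraries. Of 4 tested sex-linked genes 1, the Y-linked Uty, had an unadjusted edgeR p under 0.05 (2.48% of all genes on the higher side), with 16.8, 14.6 and 16.2 CPM in controls and 19.9, 19.4 and 24.7 in mutants.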
